A study of Mus musculus with 24 samples.

Results

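The genes described here were the ligands of the epidermal growth factor (EGF) family (*Egf*, *Tgfa*, *Areg*, *Ereg*, *Hbegf*, *Btc* and *Epgn*) and the ErbB receptors *Egfr*, *Erbb2* and *Erbb3*. They were chosen by name and matched to the table of read counts by their mouse Ensembl identifiers, which gave 10 genes, 7 ligands and 3 receptors, of the 53465 genes counted. RNA was sequenced from epithelial cells of Guca2a-Venus mice, a transgenic line in which the fluorescent protein Venus replaces the *Guca2a* (guanylin) coding sequence on a bacterial artificial chromosome, so that the guanylin promoter drives Venus. All groups carried this transgene, and the line came from a single founder. Cells of the duodenum, jejunum, ileum and colon (with rectum) were sorted into highly fluorescent (Venus-positive, labelled GFP positive) and non-fluorescent (Venus-negative, labelled GFP negative) cells, after removal of dead cells, debris without a nucleus and CD45-positive immune cells. Each of the 8 groups had 3 libraries, from 3 mice by the series' design. The labels do not name the mouse of a library, and the age and sex of the mice are not given in the sources used here.

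EGF family ligands are made as membrane-anchored precursors, and metalloproteases release their EGF-like domain, which binds ErbB receptors on the same or on neighbouring cells. EGF, TGFα, amphiregulin (*Areg*) and epigen (*Epgn*) bind EGFR, whereas heparin-binding EGF-like growth factor (*Hbegf*), betacellulin (*Btc*) and epiregulin (*Ereg*) bind EGFR and ERBB4. ERBB2 has no known ligand, ERBB3 binds neuregulins and has little kinase activity of its own, and both signal as partners in receptor pairs. In the intestinal epithelium this pathway is known for driving crypt cell proliferation and repair, and EGF made by Paneth cells is part of the stem cell niche.

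The coding sequence of the EGF-like domain shows what makes these ligands a family. It was located in the longest coding transcript of each ligand by the spacing of its cysteine codons, with 7, then 4 or 5, then 10 to 13, then 1, then 8 codons between the 6 cysteines. Of 21759 protein-coding genes scanned, 16 held this spacing (0.0735%), among them all 7 ligands and the neuregulin genes *Nrg1*, *Nrg2*, *Nrg3* and *Nrg4*. Because the spacing was set to find the domain in these ligands, that all 7 hold it is no test. The stretches of *Egf*, the founding ligand, and of *Tgfa*, *Areg*, *Ereg* and *Btc* are printed, to set the founder beside 4 ligands that passed a sort comparison, 5′ to 3′ on the coding strand, with the cysteine codons in capitals.
Egf: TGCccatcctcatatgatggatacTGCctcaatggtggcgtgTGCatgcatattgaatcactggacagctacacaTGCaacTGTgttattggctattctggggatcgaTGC
Tgfa: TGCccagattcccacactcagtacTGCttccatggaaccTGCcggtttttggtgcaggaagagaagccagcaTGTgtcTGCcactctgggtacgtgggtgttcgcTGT
Areg: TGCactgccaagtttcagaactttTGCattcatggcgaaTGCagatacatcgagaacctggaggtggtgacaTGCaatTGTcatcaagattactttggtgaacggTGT
Ereg: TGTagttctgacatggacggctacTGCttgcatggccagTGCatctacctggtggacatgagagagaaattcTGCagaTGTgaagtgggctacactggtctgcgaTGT
Btc: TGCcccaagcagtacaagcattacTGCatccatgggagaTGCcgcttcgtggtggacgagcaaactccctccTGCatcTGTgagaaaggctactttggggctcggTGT
The *Egf* stretch was codons 982 to 1018 of 1217 and had 1 codon more than the others, between the second cysteine and the next, with 5 in place of 4. It lay at chr3:129686322-129690850 on the minus strand of GRCm38, in exons 20 and 21. Each of the other stretches had 36 codons and was split over exons 3 and 4 of its gene, at chr6:86263200-86269960 (plus strand) for *Tgfa*, chr5:91143614-91144364 (plus) for *Areg*, chr5:91088496-91089111 (plus) for *Ereg* and chr5:91362421-91366197 (minus) for *Btc*. Over 108 bases without gaps, *Tgfa* and *Btc* were the most alike, with 62.04% identical bases, and *Tgfa* and *Ereg* the least, with 45.37%, among the 10 pairs of *Tgfa*, *Areg*, *Ereg*, *Btc* and *Epgn*. *Epgn*, *Ereg*, *Areg* and *Btc* lay in this order within 375.5 kb of chromosome 5, and *Btc* was on the opposite strand to the other three.

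Each library had between 7458616 and 23063124 reads on genes, with a median of 15379489.5. Levels are given as normalised CPM, a gene's count relative to its library's total after TMM adjustment and expressed as CPM, as mean ± SD over 3 libraries. A gene with up to 3 counts was taken as not detected. This floor was 0.106 to 0.360 normalised CPM, which covers counting error only. Mitochondrial genes took 32.3% to 46.6% of the counts in Venus-positive libraries of the duodenum and 64.6% to 76.4% in Venus-negative ones. These ranges were 47.1% to 60.6% against 61.2% to 78.8% for the jejunum, 41.0% to 55.4% against 64.7% to 70.9% for the ileum and 68.6% to 77.9% against 65.3% to 80.7% for the colon, so that the share was lower in Venus-positive libraries without overlap in the small intestine and overlapped in the colon. Its part in the differences of the EGF family was not tested. *Guca2a*, the check of the sort, was higher in Venus-positive than in Venus-negative libraries of every region without overlap, at 285 ± 94.1 against 5.28 ± 2.27 in the duodenum and 612 ± 95.7 against 94.8 ± 25.5 in the colon. The epithelial markers *Epcam*, *Cdh1*, *Krt8*, *Krt18* and *Krt19* summed to 1426 to 3709 in all 24 libraries, whereas 6 leukocyte markers summed to at most 8.57. The sum of 5 fibroblast markers reached 17.7 in Venus-negative libraries, in the ileum, and 2.15 in Venus-positive ones, in the duodenum. The part of such cells in the differences of the EGF family was not tested.

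The first comparison asked which members differed between the cells of high Venus fluorescence and the non-fluorescent cells of the same region. *Tgfa* was higher in Venus-positive cells of all 4 regions, *Hbegf*, *Erbb2* and *Erbb3* in 2 or 3 regions beyond the duodenum, *Egfr* in the 3 regions of the small intestine, *Areg* and *Ereg* in the ileum, and *Btc* in the duodenum but lower in the colon. Of the 9 members tested, 3 passed an adjusted p of 0.05 as higher in duodenum, 5 in jejunum, 7 in ileum and 3 in colon, beside 8.88%, 18.3%, 17.9% and 9.31% of all 15044 genes tested (edgeR's quasi-likelihood test). In the lower direction 0, 0, 0 and 1 members passed, beside 8.08%, 25.6%, 20.6% and 3.8% of all genes in the duodenum, jejunum, ileum and colon (1, 0, 0 and 1 at an unadjusted p under 0.05, and 0, 0, 0 and 1 with DESeq2). The median log2 difference of the 9 members was 1.05, 1.36, 1.27 and 1.36 in this order, against -0.16, -0.28, -0.27 and 0 over all genes. These p-values measure the spread between the libraries of a group. Without the Venus-positive replicate 3 of the ileum, the members called there fell from 7 to 4. Without the Venus-positive replicate 2 of the colon, those called there in either direction fell from 4 to 1. In sorted bulk cells, a larger share of cells of one type and more RNA per cell cannot be told apart.

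**Figure D1:**
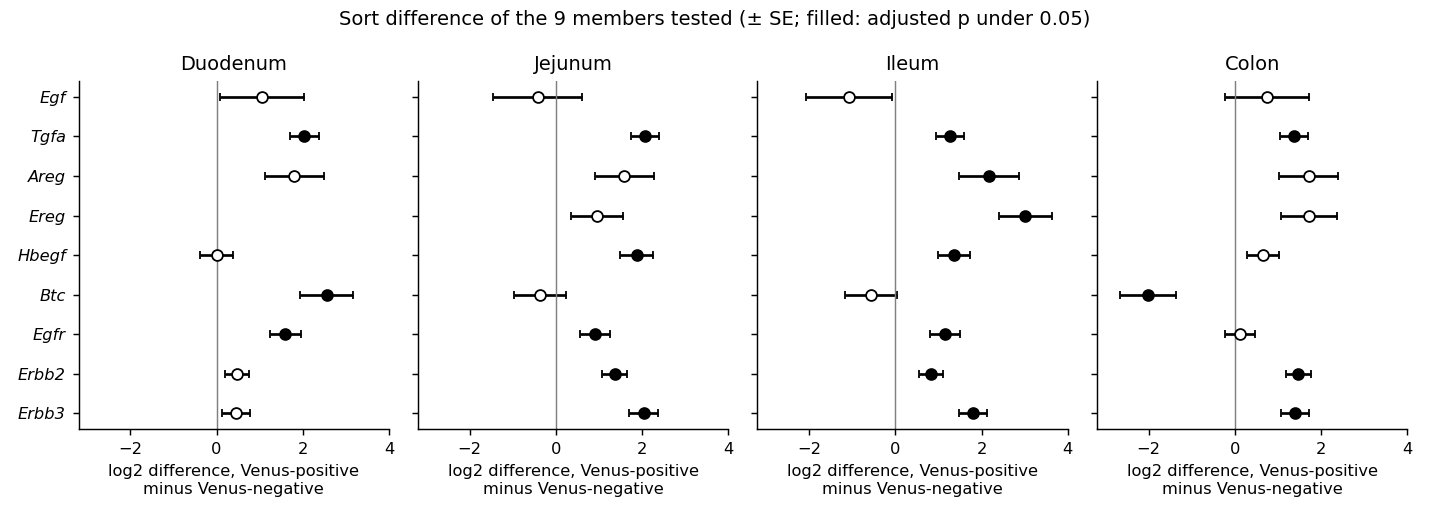
Difference between Venus-positive and Venus-negative cells for the 9 members tested, on a log2 scale, in each region. Points are estimates of edgeR's fit, bars are standard errors, and filled points passed an adjusted p of 0.05. The point of Ereg in the duodenum is left out because all its Venus-positive libraries had 0 counts. Tgfa is filled in all 4 panels, and Btc is filled to the right in the duodenum and to the left in the colon.

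The make-up of the sorted cells differed between regions, as the marker genes show. All 8 goblet markers were higher in Venus-positive cells of every region, and their summed level in the duodenum was 53010 to 60460 normalised CPM, against 310.0 to 433.7 in Venus-negative cells. All 8 Paneth markers were higher in Venus-positive cells of the duodenum, jejunum and ileum whereas in the colon 0 of 8 passed the test (edgeR; 1 of 8 at an unadjusted p under 0.05). *Kit* and *Reg4*, markers of colonic deep secretory cells, gave 1 call as higher in the duodenum and 1 in the ileum. In the jejunum and colon 0 of these 2 passed (edgeR, with 0 of 2 at an unadjusted p under 0.05). Of 8 enterocyte markers, 2 were higher in duodenum, 8 in jejunum, 8 in ileum and 5 in colon. Of 7 colonocyte markers, 6 were higher in Venus-positive cells of the colon, with a median log2 difference of 2.96 and summed levels of 1729 to 1874 against 307 to 464 normalised CPM. In the ileum 4 of the 7 were higher. In the jejunum 2 were higher and 1 lower, and in the duodenum 1 was higher and 2 lower. Of 5 tuft markers tested, 3, 5 and 5 were lower in the duodenum, jejunum and ileum. In the colon 0 of 5 passed (edgeR, with 3 of 5 at an unadjusted p under 0.05). Of 6 proliferation markers, 3, 6, 6 and 3 were lower in Venus-positive cells of the duodenum, jejunum, ileum and colon, and of 8 enteroendocrine markers 8, 8, 7 and 5 were lower. The part of these differences in those of the EGF family was not tested.

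*Tgfa* encodes TGFα, an EGFR ligand (chr6:86195223-86275719). Its 3 Venus-positive libraries were at 12.2, 13.4 and 8.44 normalised CPM in duodenum, 12.3, 13.9 and 11.5 in jejunum, 9.21, 7.21 and 10.3 in ileum and 9.12, 10.7 and 7.55 in colon. The Venus-negative libraries were at 2.67, 2.79 and 2.81, at 2.96, 3.22 and 2.84, at 4.46, 3.597 and 2.99 and at 2.88, 3.37 and 4.34 in the same order. No Venus-positive library overlapped the Venus-negative libraries of any region. The difference was 4.11-fold in the duodenum (log2 2.04 ± 0.33 SE, adjusted p = 5.7e-05 by edgeR) and 4.16-fold in the jejunum (2.06 ± 0.33, adjusted p = 9.82e-06). It was 2.41-fold in the ileum (1.27 ± 0.32, adjusted p = 0.00209) and 2.57-fold in the colon (1.36 ± 0.33, adjusted p = 0.00486). Without the Venus-positive replicate 2 of the colon, the colon difference was 1.18 with an adjusted p of 0.0528. *Tgfa* was the only member that passed the test in all 4 regions, and the joint test of whether its sort difference depended on the region did not pass (adjusted p = 0.362).

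*Areg*, or amphiregulin, an EGFR ligand induced by injury and inflammation, had few reads, 2 to 146 per library (chr5:91139599-91148432). Venus-positive libraries of the ileum were at 5.33, 4.81 and 3.31 normalised CPM and Venus-negative ones at 0.536, 1.23 and 1.22, without overlap. The ileum difference of 4.49-fold (log2 2.17 ± 0.70 SE) passed the test (edgeR, adjusted p = 0.0144) but not without the Venus-negative replicate 1 of the ileum (1.86, adjusted p = 0.0693). In the duodenum Venus-positive libraries were at 4.81, 7.23 and 10.1 against 2.53, 0.778 and 3.03, and in the colon at 10.7, 10.3 and 5.75 against 0.240, 4.10 and 3.66. The libraries of these regions did not overlap either, but their log2 differences of 1.81 ± 0.68 and 1.71 ± 0.68 had adjusted p of 0.0656 and 0.0945. In the jejunum the libraries overlapped (6.39, 4.57 and 2.04 against 0.607, 3.22 and 0.484; log2 1.59 ± 0.69, adjusted p = 0.0619). The duodenal difference passed with DESeq2 (adjusted p = 0.0332), with scaling by library size alone (0.021), with no filter (0.0116) and in a model of the duodenal libraries alone (0.0132). It also passed without the Venus-negative replicate 1 of the colon (0.0299) or the Venus-negative replicate 2 of the jejunum (0.0443). The jejunal difference passed with DESeq2 (0.0272), RLE factors (0.0427), library size alone (0.019), no filter (0.0145) and protein-coding genes alone (0.0468). It passed without the Venus-negative replicate 2 of the jejunum (2.98, adjusted p = 0.00361), the Venus-positive replicate 3 of the jejunum (0.032) or the Venus-negative replicate 1 of the colon (0.0296). The colonic difference passed with no filter (0.0322). The size of the *Areg* difference did not depend detectably on the region (joint test, adjusted p = 0.964).

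*Hbegf*, which encodes the heparin-binding ligand that also serves as a diphtheria toxin receptor in primates, had the most reads of the ligands, 58 to 873 per library. In the jejunum Venus-positive libraries were at 46.2, 48.7 and 21.9 normalised CPM and Venus-negative ones at 6.83, 18.4 and 6.59. In the ileum they were at 15.8, 21.03 and 31.8 against 11.1, 7.09 and 8.54, and in the colon at 16.1, 17.4 and 20.7 against 11.9, 8.86 and 13.7. The groups did not overlap in these 3 regions, whereas in the duodenum 5.94, 9.69 and 9.79 stood within the range of 6.95, 6.22 and 12.3 or just under it. The difference was 3.66-fold in the jejunum (log2 1.87 ± 0.38 SE, adjusted p = 0.000228 by edgeR) and 2.56-fold in the ileum (1.36 ± 0.38, adjusted p = 0.00528). Without the Venus-positive replicate 3 of the ileum, the latter was 1.04 with an adjusted p of 0.0539. The jejunal difference passed in each of the 24 fits that left out 1 library, at log2 1.62 to 2.53. The colonic difference was 0.66 ± 0.38 (adjusted p = 0.279). The mean levels in the duodenum were equal to 2 digits, 8.5 and 8.5.

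*Ereg*, or epiregulin, was not detected in Venus-positive cells of the duodenum and was high in those of the ileum (chr5:91074622-91093646). It had 0 counts in all 3 Venus-positive libraries of the duodenum and 0, 1 and 4 counts in the Venus-negative ones. Venus-positive libraries of the ileum had 329, 120 and 209 counts, or 17.7, 7.21 and 15.4 normalised CPM, against 2.06, 1.13 and 1.77 in Venus-negative cells, without overlap. Jejunum libraries overlapped, at 3.45, 3.12 and 1.39 against 1.59, 1.61 and 0.907. In the colon 3.09, 1.56 and 1.36 lay above 0.599, 0.440 and 0.765. The ileal difference was 8.10-fold (log2 3.02 ± 0.61 SE, edgeR, adjusted p = 0.000286), that of the jejunum 0.96 ± 0.60 (adjusted p = 0.199) and that of the colon 1.72 ± 0.65 (adjusted p = 0.0821, or 0.0484 with DESeq2). The floor of 3 counts per library in Venus-positive cells of the duodenum had a mean of 0.297 normalised CPM. Against it, the mean level of Venus-positive cells was at least 8.93-fold higher in the jejunum, 45.2-fold in the ileum and 6.74-fold in the colon. These bounds are for the means and leave out the spread between libraries. No fold between Venus-positive and Venus-negative cells of the duodenum can be given at these counts.

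*Btc*, or betacellulin, was high in the Venus-positive cells in which *Ereg* was not detected (chr5:91357261-91402994, minus strand). Venus-positive libraries of the duodenum were at 16.7, 19.3 and 9.57 normalised CPM, above the Venus-negative libraries at 2.88, 2.79 and 2.09. No other group had a library above 4.79. In the jejunum 2.05, 0.892 and 1.82 overlapped with 2.73, 0.772 and 2.66, in the ileum 1.72, 0.661 and 1.69 with 2.19, 1.06 and 2.83, and in the colon 0.386, 0.354 and 1.16 with 4.79, 0.952 and 2.21. The difference was 5.86-fold in the duodenum (log2 2.55 ± 0.60 SE, edgeR, adjusted p = 0.00412). It was -0.37 ± 0.60 in the jejunum (adjusted p = 0.643) and -0.57 ± 0.60 in the ileum (adjusted p = 0.481). In the colon *Btc* was lower in Venus-positive cells (-2.01 ± 0.65, adjusted p = 0.038), on 5, 5 and 18 counts against 40, 13 and 26. The colonic call was lost in a model of the colon libraries alone (-2.16, adjusted p = 0.118). It was also lost without the Venus-positive replicate 1 (-1.75, 0.164) or 2 (-1.76, 0.174) of the colon, the Venus-negative replicate 1 (-1.27, 0.247) or 3 (-2.10, 0.059) of the colon, or the Venus-positive replicate 1 of the duodenum (-2.00, 0.0509). The Venus-positive libraries of the duodenum in which *Btc* was high were also those with the highest summed goblet and Paneth markers (17260 to 48140 normalised CPM for Paneth markers, against at most 14460 in any other library), and the part of these in the *Btc* difference was not tested.

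*Egf*, the founding ligand, had 0 to 63 counts per library (chr3:129677565-129755316, minus strand). Venus-positive libraries were at 4.92, 2.79 and 3.38 normalised CPM in duodenum, 0.256, 0.502 and 1.02 in jejunum, 1.56, 0 and 0 in ileum and 3.17, 1.70 and 3.23 in colon. Venus-negative libraries were at 0.351, 4.09 and 0.865 in duodenum, 0.987, 1.22 and 0.182 in jejunum, 1.77, 0.882 and 0.776 in ileum and 1.80, 1.69 and 1.36 in colon. The groups overlapped in every region. The log2 differences of 1.05 ± 0.97 in duodenum, -0.43 ± 1.03 in jejunum, -1.08 ± 1.002 in ileum and 0.74 ± 0.97 in colon did not pass the test (edgeR, adjusted p = 0.489, 0.766, 0.414 and 0.683). The study lists *Egf* among markers of Paneth-like cells that were enriched in Venus-positive cells of the colon. Here the colonic difference had that direction but was not called. The same held under each alternative that tested it (edgeR or DESeq2, adjusted p of 0.562 or more). Leaving out 1 library gave 0.57 to 2.58 in the duodenum and -1.04 to 0.04 in the jejunum, without a call. Without the Venus-positive replicate 1 of the ileum, which held all 29 counts of its group, the ileal difference passed (adjusted p = 0.0014) against libraries at 0, where the fitted size is no measure. *Epgn* had 12 counts in all 24 libraries together, at most 6 in one, and was not tested (chr5:91027464-91035215).

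**Figure D2:**
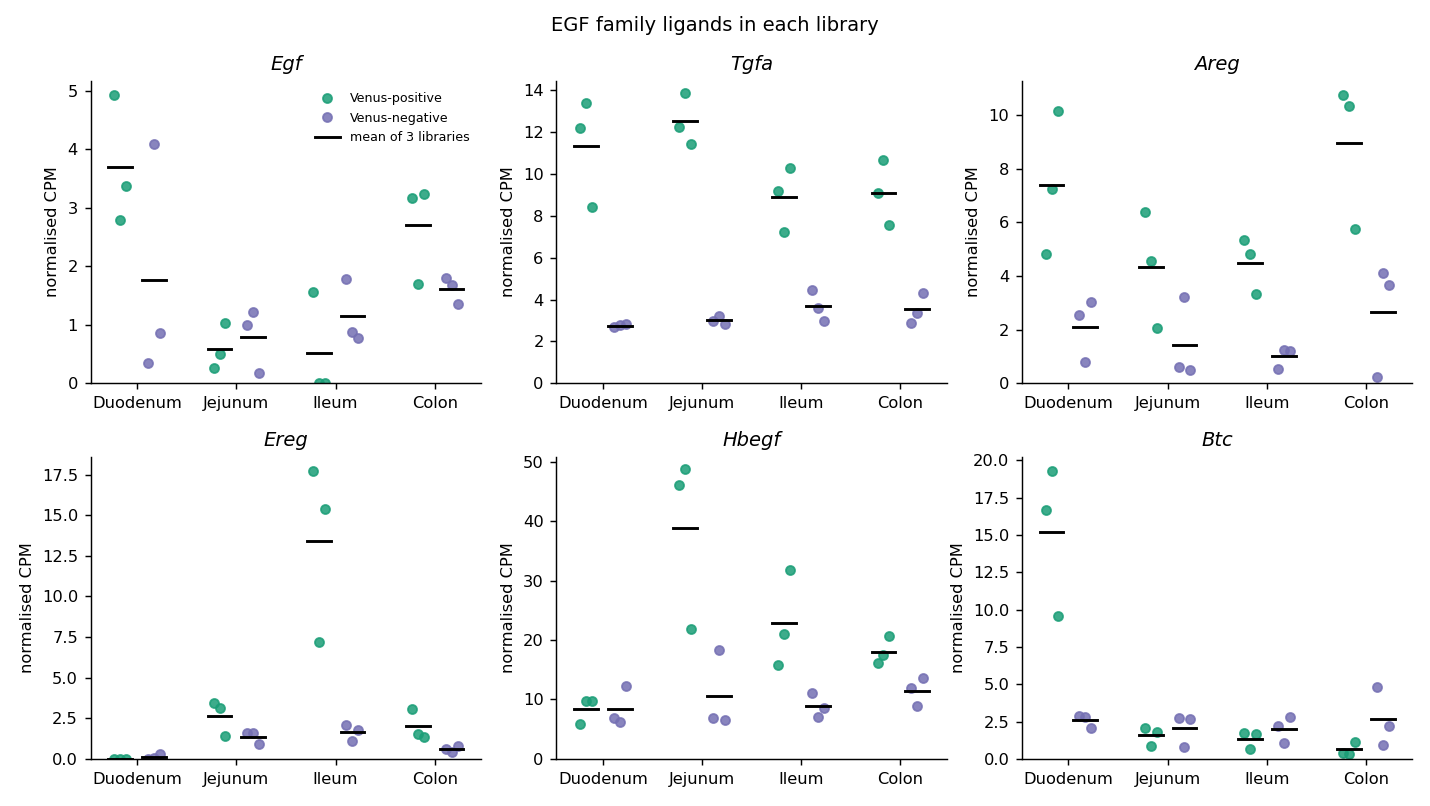
Normalised CPM of 6 ligands in each library (points; green Venus-positive, purple Venus-negative) by region, with black lines at the mean of 3 libraries; each panel has its own axis, starting at 0. Btc stands out in Venus-positive libraries of the duodenum (9.57 to 19.3) and Ereg in those of the ileum (7.21 to 17.7), while the Venus-positive points of Tgfa lie above the Venus-negative ones in every region.

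To compare ligands with each other, levels were divided by exon length. This length was the union of all annotated exons of a gene, from 1215 bases for *Areg* to 11275 for *Egf*. Shares and orders on this scale therefore depend on the annotated transcripts, and which of these the cells used was not tested. On this scale, the ligands together summed to 13.3 ± 1.81 normalised CPM per kb in Venus-positive cells of the duodenum, 14.6 ± 5.08 in jejunum, 13.4 ± 1.90 in ileum and 13.4 ± 2.02 in colon (SD, n = 3). The sums in Venus-negative cells were 4.74 ± 1.26, 4.70 ± 2.54, 4.18 ± 0.49 and 6.02 ± 1.48. The sums of the 4 Venus-positive groups did not differ beyond their spread. In the duodenum *Areg* took 45.8% of the sum and *Btc* 25.3%, and the levels of these ligands overlapped. In the jejunum *Hbegf* took 55.0%, followed by *Areg* with 24.4% and *Tgfa* with 13.2%, where *Hbegf* overlapped with *Areg* and *Areg* with *Tgfa*. In the ileum *Hbegf* (35.3%) overlapped with *Areg* (27.5%), and *Areg* with *Ereg* (24.3%). In the colon *Areg* took 55.1% and *Hbegf* 27.9%, without overlap. *Btc* took 1.05% and *Ereg* 3.63% there, and *Ereg* 0% in the duodenum. In Venus-negative cells *Hbegf* led in all 4 regions with 37.0% to 46.7%, and *Areg*, the second, overlapped with it except in the ileum. *Egf* took 0.344% to 3.3% of the sum in all 8 groups.

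**Figure D3:**
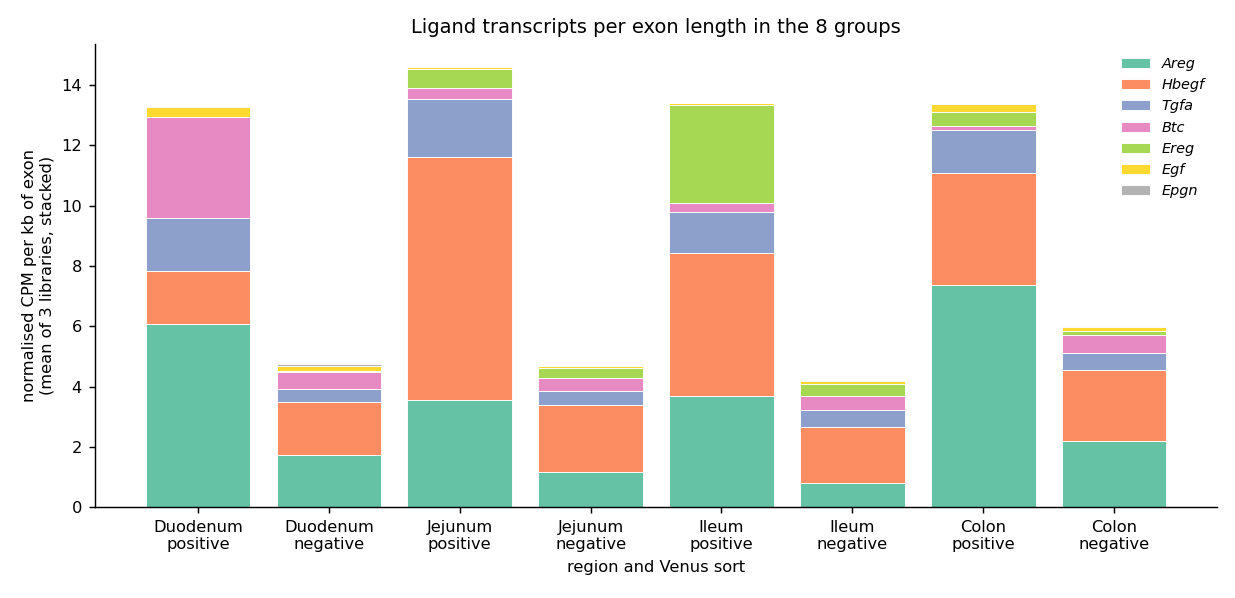
Mean normalised CPM per kb of exon for the 7 ligands, stacked, in the 8 groups of region and sort (3 libraries each; no error bars, since the parts are stacked). The 4 Venus-positive columns reach 13.3 to 14.6 and the 4 Venus-negative ones 4.18 to 6.02. Btc makes up 25.3% of the Venus-positive column of the duodenum and Ereg 24.3% of that of the ileum.

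Of the receptors, *Egfr*, which binds all 7 ligands, had 95 to 605 counts per library (chr11:16752203-16918158). Venus-positive libraries were at 28.0, 30.6 and 30.8 normalised CPM in the duodenum and 38.7, 17.7 and 21.6 in the jejunum, above the Venus-negative libraries at 13.3, 7.39 and 8.87 and at 13.5, 14.7 and 13.1. In the ileum 8.40, 23.3 and 24.9 overlapped with 10.9, 7.79 and 6.71, and in the colon 10.6, 18.8 and 10.8 with 11.4, 13.3 and 12.3. The difference was 3.02-fold in the duodenum (log2 1.595 ± 0.36 SE, edgeR, adjusted p = 0.00234), 1.88-fold in the jejunum (0.91 ± 0.35, adjusted p = 0.0332) and 2.22-fold in the ileum (1.15 ± 0.35, adjusted p = 0.00977). It was 0.12 ± 0.35 in the colon (adjusted p = 0.877). The jejunal call was lost with at least 10 counts in every library (0.80, adjusted p = 0.0506). It was also lost without the Venus-positive replicate 1 (0.51, 0.295) or the Venus-negative replicate 1 (0.96, 0.0659), 2 (0.96, 0.0578) or 3 (0.88, 0.0827) of the jejunum. The ileal call was lost without the Venus-positive replicate 2 (0.97, 0.0585) or 3 (0.90, 0.0784) or the Venus-negative replicate 3 (1.01, 0.0523) of the ileum.

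*Erbb2* encodes the ligandless partner receptor (chr11:98412470-98437716). Its Venus-positive libraries were at 83.1, 84.9 and 76.6 normalised CPM in jejunum, 70.5, 77.99 and 72.8 in ileum and 78.7, 108.9 and 62.2 in colon, but at 33.6, 36.2 and 43.0 in the duodenum. The Venus-negative libraries were at 31.0, 36.4 and 27.8, at 58.2, 40.7 and 25.6, at 36.3, 34.1 and 19.5 and at 32.6, 24.1 and 24.5 in the same order. The groups did not overlap in any region. The difference was 2.57-fold in the jejunum (log2 1.36 ± 0.29 SE, edgeR, adjusted p = 0.0003), 1.78-fold in the ileum (0.83 ± 0.28, adjusted p = 0.0209) and 2.78-fold in the colon (1.48 ± 0.29, adjusted p = 0.000749). It was 0.47 ± 0.28 in the duodenum (adjusted p = 0.263). The ileal call was lost with scaling by library size alone (0.71, 0.089) and with at least 10 counts in every library (0.63, 0.0623). It was also lost without the Venus-positive replicate 2 (0.78, 0.0653) or 3 (0.83, 0.0506) or the Venus-negative replicate 2 (0.81, 0.0606) or 3 (0.57, 0.143) of the ileum. *Erbb2* overlaps *Mien1* on the opposite strand, which had 3981 counts against 18776 for *Erbb2* over all libraries. The library kit marked the strand, but the strand setting of the counting is not given in the sources used here.

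*Erbb3*, the neuregulin receptor, had the highest level of the 3 receptors per exon length in all 8 groups (chr10:128567523-128589652, minus strand). Venus-positive libraries were at 490.9, 279.0 and 371 normalised CPM in the jejunum and 299.8, 332 and 396.5 in the ileum, against 101.0, 94.1 and 84.2 and against 146, 88.0 and 59.8 in Venus-negative cells. In the colon they were at 176, 231 and 128 against 84.5, 71.4 and 47.8. The groups did not overlap in these regions, whereas in the duodenum 88.4, 90.3 and 155 overlapped with 96.0, 74.2 and 74.8. The difference was 4.09-fold in the jejunum (log2 2.03 ± 0.33 SE, edgeR, adjusted p = 1.38e-05), 3.50-fold in the ileum (1.81 ± 0.33, adjusted p = 6.91e-05) and 2.63-fold in the colon (1.40 ± 0.33, adjusted p = 0.00413). In the duodenum it was 0.45 ± 0.32 (adjusted p = 0.359). Without the Venus-positive replicate 2 of the colon, the colonic difference was 1.13 with an adjusted p of 0.0545. Per kb of exon, *Erbb3* was at 63.2 ± 17.7 in Venus-positive cells of the jejunum, beside 15.7 ± 0.83 for *Erbb2* and 2.30 ± 0.98 for *Egfr* (SD, n = 3). *Erbb3* took 62.3% to 78.3% of the receptor sum in all 8 groups. *Egfr* took 9.28% in Venus-positive cells of the duodenum and 2.29% to 5.99% in the other groups, and the levels of *Erbb3* and *Erbb2* overlapped in Venus-negative cells of the ileum alone.

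**Figure D4:**
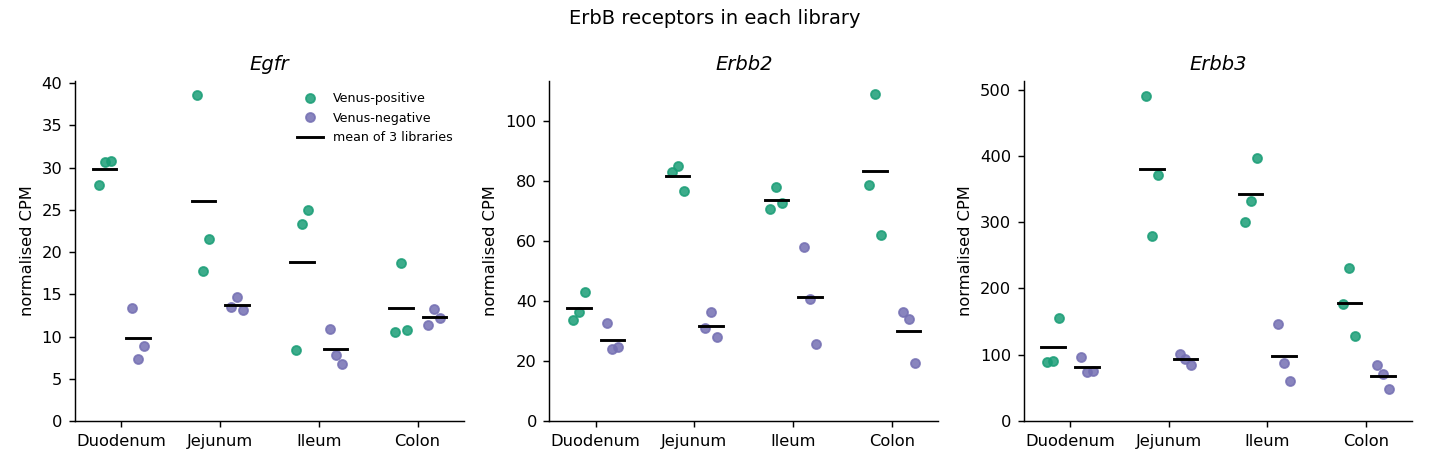
Normalised CPM of the 3 receptors in each library (points; green Venus-positive, purple Venus-negative) by region, with black lines at the mean of 3 libraries; each axis starts at 0 and has its own scale. Erbb2 and Erbb3 lie highest in jejunal and ileal Venus-positive libraries and, for Erbb2, also in colonic ones, whereas Egfr in Venus-positive libraries of the duodenum reaches 28.0 to 30.8.

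Interaction contrasts then tested whether the difference between Venus-positive and Venus-negative cells itself changed with the region. The duodenum stood apart from the jejunum and ileum for 3 members. The difference was larger in the duodenum for *Btc*, by 3.02 ± 0.73 on the log2 scale (edgeR, adjusted p = 0.0043). It was smaller in the duodenum for *Erbb3* (-1.47 ± 0.40, adjusted p = 0.0096) and *Hbegf* (-1.61 ± 0.47, adjusted p = 0.0169). The fit also called *Ereg* (adjusted p = 0.0176), but its duodenal libraries had at most 4 counts, no sort difference can be measured there, and nothing is read from this call. Hence 1 member of 9 was called as larger beside 9.6% of all genes, and 3 as smaller, *Ereg* included, beside 7.9%. The *Hbegf* call was lost with library size alone (-1.34, 0.073) and without the Venus-positive replicate 1 (-1.42, 0.0618) or the Venus-negative replicate 3 (-1.25, 0.0948) of the duodenum. The *Erbb3* call was lost with library size alone (-1.14, 0.0843). The *Ereg* call was lost without the Venus-positive replicate 2 (0.0564) or the Venus-negative replicate 3 (0.237) of the duodenum. *Egf* was called only without the Venus-positive replicate 1 of the ileum (adjusted p = 0.00772).

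Between small intestine and colon, the sort difference of *Btc* was larger in the small intestine by 2.54 ± 0.74 (edgeR, adjusted p = 0.0451). The mean of the small intestine rested on the duodenum (2.55), since the jejunum (-0.37) and ileum (-0.57) had the sign of the colon (-2.01). This was 1 member of 9 beside 1.38% of all genes, and 0 were called in the other direction beside 2.75% (0 at an unadjusted p under 0.05 and 0 with DESeq2). The *Btc* call was lost in 14 of 24 fits that left out 1 library, with adjusted p up to 0.215. For *Egfr* the contrast was 1.10 ± 0.41 (adjusted p = 0.12, or 0.0492 with DESeq2 and 0.046 without the Venus-positive replicate 1 of the ileum). The joint test over the 4 regions passed for *Btc* (adjusted p = 0.00288), *Ereg* (0.0227, with the same limit in the duodenum) and *Erbb3* (0.0484), 3 members of 9 beside 17.5% of all genes, with *Hbegf* at 0.0532. This count fell to 0 with at least 10 counts in every library and to 1 with library size alone or without the Venus-negative replicate 3 of the duodenum, and it was 6 without the Venus-positive replicate 1 of the ileum.

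Levels were next compared along the gut within each sort. Among Venus-positive cells, 7 of 9 members differed between the regions, beside 43.3% of all genes, the exceptions being *Tgfa* and *Areg* (edgeR, adjusted p = 0.421 and 0.401). Among Venus-negative cells only *Ereg* differed (adjusted p = 0.00378), 1 of 9 beside 12.3% of all genes. Venus-positive cells of the duodenum exceeded those of the ileum in *Btc* (log2 3.48 ± 0.63, adjusted p = 0.00015) and *Egf* (adjusted p = 0.0492), 2 of 9 beside 13.1% of all genes. They were lower in *Ereg* (adjusted p = 1.29e-07), *Erbb3* (-1.62 ± 0.33, adjusted p = 0.000488), *Hbegf* (-1.43 ± 0.39, adjusted p = 0.00684) and *Erbb2* (-0.97 ± 0.28, adjusted p = 0.0121), 4 of 9 beside 12.5%. The fitted size for *Egf*, 2.76, rested on the 1 ileal library with counts and was 8.79 without it, against libraries at 0. The *Egf* call was lost with library size alone and without any of 13 libraries, with adjusted p up to 0.162. The *Erbb2* call was lost without the Venus-positive replicate 1 of the duodenum (0.0509), and the *Hbegf* call without the Venus-positive replicate 3 of the ileum (0.057). In Venus-negative cells *Ereg* was lower in the duodenum than in the ileum (adjusted p = 0.00241), on 0, 1 and 4 counts against 50, 32 and 32, too few for a size to be given, 1 of 9 beside 1.7%. In the other direction 0 were called beside 2.7% (0 at an unadjusted p under 0.05 and 0 with DESeq2).

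Venus-positive cells of the colon were lower than the mean of the small intestine in *Btc* (log2 -2.30 ± 0.58, edgeR, adjusted p = 0.0034) and *Egfr* (-0.87 ± 0.30, adjusted p = 0.0295), 2 of 9 beside 10.3% of all genes. For *Btc* the mean level was 15.2 normalised CPM in the duodenum but 1.59 in the jejunum and 1.36 in the ileum. The jejunal and ileal libraries overlapped with those of the colon (mean 0.634). The *Btc* contrast passed in each of the 24 fits that left out 1 library, at -3.08 to -2. As higher 0 were called beside 15.9% (1 at an unadjusted p under 0.05, *Ereg*, and 0 with DESeq2). Without the Venus-positive replicate 1 of the ileum, the only one there with *Egf* counts, *Egf* was called as higher (adjusted p = 0.00174). The *Egfr* call was lost without any of 5 libraries, the Venus-positive replicate 1 of the jejunum, 1 or 3 of the colon, or 2 or 3 of the ileum, with adjusted p up to 0.166. With library size alone *Erbb3* was also called (-0.87, adjusted p = 0.0402). In Venus-negative cells this contrast called 0 of 9 members with edgeR and 0 with DESeq2, and 0 had an unadjusted p under 0.05. Over all genes it called 5.74% as higher and 6.53% as lower in the colon.

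In the order of levels over the 8 groups, neighbouring groups mostly overlapped. *Tgfa* had a single wide step, between the 4 Venus-positive groups (8.91 to 12.5) and the 4 Venus-negative ones (2.76 to 3.68). *Ereg* in Venus-positive cells of the ileum (13.4 ± 5.51 normalised CPM) and *Btc* in Venus-positive cells of the duodenum (15.2 ± 5.04) each stood above the next group without overlap. *Erbb3* in Venus-positive cells of the jejunum (380 ± 106) and ileum (343 ± 49.3) overlapped with each other and not with the next, the colon (179 ± 51.7). *Erbb2* was highest in Venus-positive cells of the colon (83.3 ± 23.7), jejunum (81.5 ± 4.34) and ileum (73.8 ± 3.83), which overlapped. *Egfr* descended from Venus-positive cells of the duodenum (29.8 ± 1.603) to Venus-negative cells of the ileum (8.46 ± 2.17) with no gap between neighbours.

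The other genes of the family had few reads. *Erbb4*, the fourth receptor, had 3 counts in all libraries together, *Nrg1* 24, *Nrg2* 37 and *Nrg3* 6, and they were not tested. *Nrg4*, a neuregulin that binds ERBB4, had 316 counts in all, at most 37 in a library. Its level was 0.930 ± 0.945 normalised CPM in duodenal Venus-positive cells against 0.774 ± 1.10 in duodenal Venus-negative cells, and 0.247 ± 0.202 and 1.20 ± 0.186 in the colon. The log2 differences of *Nrg4* lay between -2.27 and 0.60, with adjusted p of 0.902, 0.706, 0.79 and 0.257 in the duodenum, jejunum, ileum and colon (edgeR). At these depths the ERBB3 ligands *Nrg1* and *Nrg2* were not detectable beyond a few reads in the cells that carried *Erbb3* transcripts.

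Genes that process the ligands or carry the signal were counted from 5 lists. Over all 15044 genes tested, the shares called as higher were 8.88%, 18.3%, 17.9% and 9.31% and those called as lower 8.08%, 25.6%, 20.6% and 3.8%, from the duodenum to the colon, and the shares of each list are given in the same order. Of 12 genes for sheddases and ligand trafficking, 9 were tested, and 2 were higher and 1 lower in Venus-positive cells of the duodenum, 1 and 2 in the jejunum, and 2 and 1 in the ileum. In the colon 0 of 9 passed (edgeR; 3 of 9 at an unadjusted p under 0.05). The shares were 22.2%, 11.1%, 22.2% and 0% higher and 11.1%, 22.2%, 11.1% and 0% lower, each within 1 or 2 genes of that over all genes. *Cnih1*, a cargo receptor for TGFα in early secretion, was lower in the duodenum (log2 -1.46 ± 0.35, adjusted p = 0.00442), jejunum (-2.30 ± 0.36, adjusted p = 7.22e-06) and ileum (-0.87 ± 0.34, adjusted p = 0.0453). *Rhbdl2*, a rhomboid protease, was higher in the jejunum (2.38 ± 0.52, adjusted p = 0.000437) and ileum (1.67 ± 0.50, adjusted p = 0.00911). *Adam15*, a metalloprotease, was higher in the duodenum (1.66 ± 0.44, adjusted p = 0.00869). The medians of this list were 0.57, 0.33, 0.27 and 0.24 in the 4 regions, against -0.16, -0.28, -0.27 and 0 over all genes.

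Of 16 adaptors and kinases of the ERK cascade, all tested, 3 were higher in duodenum, 9 in jejunum, 7 in ileum and 4 in colon, and 1 was lower in the jejunum. This was 18.8%, 56.2%, 43.8% and 25% as higher, beside 8.88%, 18.3%, 17.9% and 9.31% over all genes, and 0%, 6.25%, 0% and 0% as lower. The medians were 0.26, 0.71, 0.43 and 0.56. *Map2k1* and *Mapk3*, which encode MEK1 and ERK1, were higher in all 4 regions. *Map2k1* was higher by 0.80 ± 0.28 in duodenum, 1.97 ± 0.29 in jejunum, 2.13 ± 0.29 in ileum and 0.93 ± 0.28 in colon (edgeR, adjusted p = 0.0498, 3.26e-06, 1.58e-06 and 0.0263). *Mapk3* was higher by 0.83 to 1.47. Of 11 genes of receptor turnover, 3, 5, 3 and 4 were higher and 1, 1, 0 and 0 lower in the duodenum, jejunum, ileum and colon. The shares were 27.3%, 45.5%, 27.3% and 36.4% higher and 9.09%, 9.09%, 0% and 0% lower, where 17.9% of all genes were higher in the ileum. *Stam2* (1.07 to 1.57) and *Hgs* (0.85 to 1.27), which sort ubiquitinated receptors on endosomes, were higher in all 4 regions. *Epn1*, an endocytic adaptor, was higher in the jejunum (1.52 ± 0.27), ileum (1.49 ± 0.27) and colon (1.26 ± 0.27), with 0.61 ± 0.26 in the duodenum (adjusted p = 0.109).

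Of 13 genes of negative feedback on the pathway, 2 were higher in duodenum, 3 higher and 3 lower in jejunum, 3 and 2 in ileum and 1 and 2 in colon, with medians of 0.06, -0.02, 0.05 and 0.09. The shares were 15.4%, 23.1%, 23.1% and 7.69% higher and 0%, 23.1%, 15.4% and 15.4% lower. In the jejunum they lay near the 18.3% and 25.6% of all genes. *Errfi1*, which encodes the EGFR inhibitor MIG6, was higher in all 4 regions, by 1.83 ± 0.39 in duodenum, 2.31 ± 0.39 in jejunum, 1.61 ± 0.38 in ileum and 1.70 ± 0.38 in colon (edgeR, adjusted p = 0.00148, 1.98e-05, 0.0012 and 0.0029). *Dusp6*, an ERK phosphatase, was higher in the duodenum (2.26 ± 0.50), jejunum (3.28 ± 0.52) and ileum (3.06 ± 0.52), with 1.18 ± 0.49 in the colon (adjusted p = 0.117). *Lrig1*, an ErbB inhibitor that marks intestinal stem cells, was lower in the jejunum (-2.91 ± 0.39), ileum (-3.11 ± 0.38) and colon (-1.33 ± 0.36), with -0.21 ± 0.35 in the duodenum (adjusted p = 0.723). Stem markers moved in the same direction as *Lrig1*, with 1, 4, 4 and 3 of 5 lower in the duodenum, jejunum, ileum and colon, and their part in the *Lrig1* difference was not tested.

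Of 13 early targets of the pathway, 1 was higher in duodenum, 3 higher and 3 lower in jejunum, 3 and 5 in ileum and 1 and 1 in colon, with medians of -0.13, -0.54, -0.79 and -0.46. The shares were 7.69%, 23.1%, 23.1% and 7.69% higher and 0%, 23.1%, 38.5% and 7.69% lower, most of them near those of all genes (in the jejunum 18.3% and 25.6%). The gene called in the duodenum was *Phlda1*, higher by 1.70 ± 0.38 (edgeR, adjusted p = 0.00257). The 3 genes named next were those called in the most regions, with ties broken by the largest absolute mean log2 difference. All 3 were lower, and the 3 genes called as higher in the jejunum and the 3 in the ileum were not named by this rule. *Myc*, a growth regulator, was lower in the jejunum (-3.98 ± 0.67, adjusted p = 1.88e-05), ileum (-4.80 ± 0.68, adjusted p = 2.5e-06) and colon (-1.87 ± 0.58, adjusted p = 0.0285), with -0.62 ± 0.56 in the duodenum (edgeR, adjusted p = 0.486). *Ccnd1*, which encodes cyclin D1, was lower in the jejunum (-3.62 ± 0.56) and ileum (-3.13 ± 0.54), as was the transcription factor *Egr2* (-3.52 ± 1.04 and -2.63 ± 1.01). All 6 proliferation markers were lower in Venus-positive cells of the same regions, with summed levels of 12.7 to 25.01 against 173 to 207 normalised CPM in the jejunum and 16.6 to 35.3 against 197.6 to 262 in the ileum. Their part in the differences of *Myc* and *Ccnd1* was not tested.

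**Figure D5:**
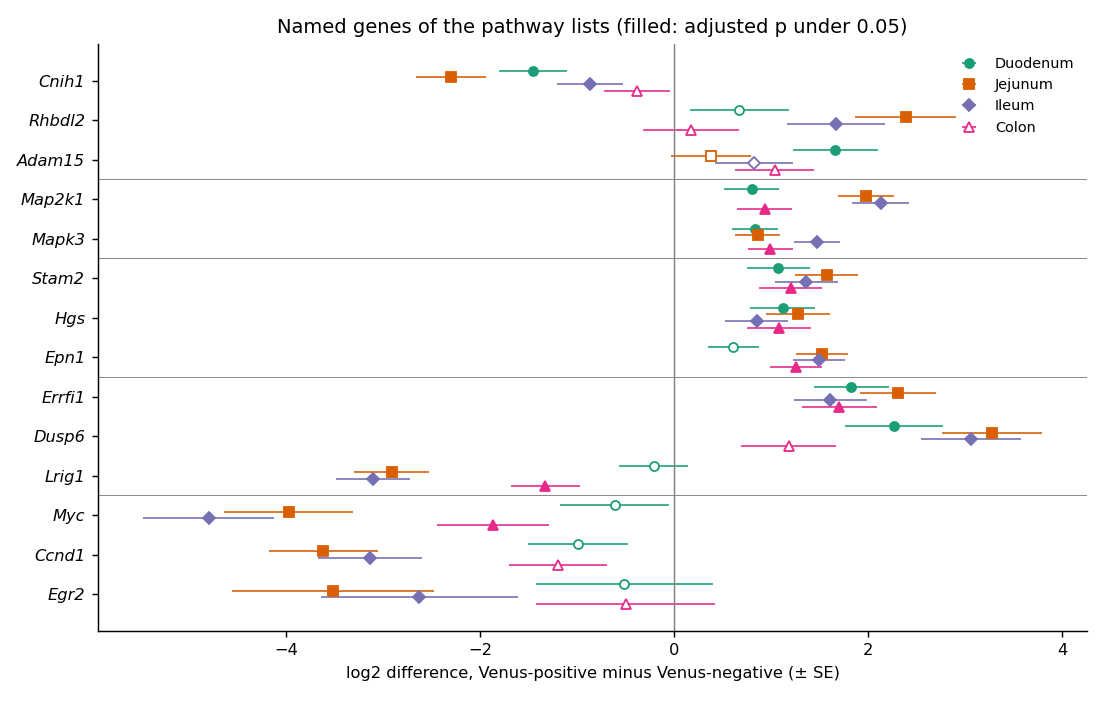
Difference between Venus-positive and Venus-negative cells, on a log2 scale with standard errors, for the named genes of the 5 pathway lists (from top: ligand processing, ERK cascade, receptor turnover, negative feedback, early targets); one symbol per region, filled where the adjusted p was under 0.05. Map2k1, Mapk3, Stam2, Hgs and Errfi1 are filled to the right in all 4 regions, and Lrig1, Myc, Ccnd1 and Egr2 lie to the left.

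The pattern of each member over the 8 groups was compared with that of all genes tested, by the correlation of mean log2 CPM, as a description over 8 points that share libraries. *Npc1* (r = 0.9965) and *Maff* (0.995) were most like *Hbegf*, *Itgb5* (0.9959) and *Fosl2* (0.9952) most like *Erbb3*, and *Fam3a* (0.9931) and *Mtor* (0.9907) most like *Erbb2*. *Trp53inp2* (0.9919) and *Tom1l1* (0.9714) were most like *Areg*, *Khnyn* (0.989) and *Sec16a* (0.9875) most like *Tgfa*, and *Tmem165* (0.9653) and *Mtmr10* (0.9616) most like *Egfr*. For the members with few reads these were *Zfp773* (0.9797) and *Evpl* (0.9669) for *Ereg*, *Gm15651* (0.9718) and *Pnliprp1* (0.9657) for *Btc*, and *Per1* (0.9787) and *Zfp667* (0.9686) for *Egf*. Between members, *Erbb2* and *Erbb3* were the most alike pair (r = 0.915), followed by *Hbegf* with *Erbb3* (0.908). *Egf* and *Ereg* (-0.755) and *Ereg* and *Btc* (-0.741) ran the most opposite. *Npc1*, the cholesterol transporter of lysosomes, was at 55.8 normalised CPM in Venus-positive cells of the jejunum and at 6.49 in those of the duodenum, as *Hbegf* was at 38.9 and 8.47.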

How the data were processed

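Libraries of 24 sorted cell samples were made from total RNA with a strand-marking kit (SMARTer Pico) and sequenced as single-end 50-base reads. The authors aligned the reads to GRCm38 with STAR (version 2.5.1 in the submitters' processing notes, which also name CASAVA) and deposited raw counts per gene, without normalisation. The annotation and the strand column used are not given in the sources used here. Symbols, positions and exon lengths were taken from GENCODE M21 (GRCm38), which named 53360 of 53465 genes. The summary lines for reads outside genes were left out.

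Counts were analysed with edgeR 4.0.16 in R 4.3.3: filterByExpr (minimum count 10, total 15; 15044 genes), TMM, and a quasi-likelihood test with 1 coefficient per group over all 24 libraries. Adjusted p-values are Benjamini-Hochberg across every gene tested, and the threshold was 0.05. Standard errors were taken as the log2 difference over the square root of F. Libraries of the same group differed beyond counting error (chi-square per degree of freedom 23.7 to 154 over 24 pairs).

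Alternatives were DESeq2 1.42.0, RLE factors, library size alone, no filter, 10 counts in every library, nuclear protein-coding genes alone, a covariate for the i5 index, the compared libraries alone, an adjusted p of 0.01, a log2 difference of at least 1, and each library left out. The members and lists were chosen with earlier results of these data known. Up to 3 genes per pathway list were named, those called in the most sort comparisons, with ties broken by the largest absolute mean log2 difference. For each member the 2 genes with the most similar pattern were named (log2 CPM, prior count 2). Some genes that these rules name are not reported here. Counts and sequences come from different releases where the authors' annotation was another one.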

Additional observations from a re-analysis of the deposited data

Results flagged for a closer look

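These results are listed because the effect of the sort differed between regions by an interaction test (edgeR, adjusted over all genes tested). The sort difference in the duodenum minus the mean of the jejunum and ileum was 3.02 ± 0.73 (SE) on the log2 scale for *Btc* (adjusted p = 0.0043), -1.47 ± 0.40 for *Erbb3* (adjusted p = 0.0096) and -1.61 ± 0.47 for *Hbegf* (adjusted p = 0.0169). For *Ereg* it was fitted at -5.89 ± 1.72 (adjusted p = 0.0176), a size that rests on a group with 0 counts in all 3 libraries and is no bound, and nothing is read from it because no sort difference of *Ereg* can be measured in the duodenum. The sort difference of *Btc* in the small intestine minus the colon was 2.54 ± 0.74 (adjusted p = 0.0451). Beside these results, duodenal and jejunal Venus-positive libraries differed in the summed level of enterocyte markers (1990 to 4099 against 22880 to 28270 normalised CPM), of goblet markers (53010 to 60460 against 1907 to 4907) and of Paneth markers (17260 to 48140 against 1514 to 14460), whose part in them was not tested.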

How the results depend on the processing

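Of 2785 values for single members under the alternatives, 2697 stayed on the same side of the threshold, 65 lost a call and 23 gained one. The direction of a called value turned in 0 of them. Values that were not called could change sign within the 2697. For *Egfr* in the colon the difference was 0.12 in the main fit and -0.25 at the lowest with 1 library left out. The i5 index as covariate changed the side of 0 of 90 values. No paired analysis was run, because the labels do not name the mouse of a library and the replicate numbers only follow the order of deposit. Libraries with the same replicate number may still share a mouse or a batch. The percentage of multimapping reads was lowest in replicate 2 of every group (21.8, 17.2 and 25.6 in Venus-positive libraries of the jejunum, for example). A block on the replicate number was not fitted, so its effect on the calls was not tested. Scaling by library size alone moved the median of all genes from -0.16 to 0.27 in the duodenum and from -0.28 to 0.02 in the jejunum, and RLE factors moved the latter to -0.16. No member's called direction turned under either.

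With at least 10 counts in every library, which leaves 5 of the 10 members, the calls were 4 in the ileum, 2 for the duodenum against jejunum and ileum, 0 for small intestine against colon, 1 for Venus-positive colon against small intestine, 3 and 0 for duodenum against ileum in Venus-positive and Venus-negative cells, 0 in the joint test of the sort difference, and 4 and 0 between regions among Venus-positive and Venus-negative cells. With library size alone they were 2 for the duodenum against jejunum and ileum, 2 for Venus-negative duodenum against ileum, 1 in the joint test and 2 among Venus-negative regions. DESeq2 gave 2 for small intestine against colon. An adjusted p of 0.01 left 2 for the duodenum against jejunum and ileum, 0 for small intestine against colon, 1 for Venus-positive colon against small intestine and 1 in the joint test, and a log2 difference of at least 1 left 1 for Venus-positive colon against small intestine.

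Leaving out each library gave 4 to 8 members called in the ileum, 1 to 4 in the colon (1 without the Venus-positive replicate 2), 2 to 5 for the duodenum against jejunum and ileum, 0 to 2 for small intestine against colon, 1 to 3 for Venus-positive colon against small intestine, and 1 to 6 in the joint test of the sort difference (6 without the Venus-positive replicate 1 of the ileum, 1 without the Venus-negative replicate 3 of the duodenum). The ileum kept 4 without its Venus-positive replicate 3. The cause of these changes was not tested, other than that the strict filter tests fewer members. Low counts limit *Egf*, *Areg*, *Ereg* and *Btc*, and *Epgn*, *Erbb4*, *Nrg1*, *Nrg2* and *Nrg3* could not be tested.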
